A study of Drosophila melanogaster with 18 samples.

Results

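Cytochrome P450 genes were followed in whole first-instar larvae of Drosophila melanogaster, as the larval enzymes of oxidative metabolism. The group was chosen by symbol: genes named Cyp with a family number, a letter and a gene number, without Cyp18a1, each read through a probe set assigned to 1 gene. The arrays carried such a probe set for 80 P450 genes. Of these, 60 reached a log2 signal of 6 in at least 3 of 18 arrays and were tested among 8211 genes. The other 20 did not, and 18 of them lay below 6 in every array. Just outside the limit were Cyp6t1, with 2 arrays at 6 or more, and Cyp4d8, with 1. Just inside were Cyp313a3 with 3 arrays and Cyp4e3 with 4. No member passed through the arrays of a single group alone, and 41 of the 60 stood at 6 or more in every array. However, 4 members, Cyp4p2, Cyp313a3, Cyp6g2 and Cyp28a5, did not reach 6 in 3 wildtype arrays and passed only with the mutant arrays. Cyp4e3 and Cyp9h1 did not reach 6 in 3 mutant arrays and passed only with the wildtype arrays. For these genes the direction of a change against wildtype is not independent of the filter. The cyclophilins Cyp1, Cyp40 and cyp33, another protein class with like symbols, were not counted.

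Each replicate was total RNA from a pool of 200 whole larvae taken about 48 hours after egg laying at 25 °C. Wildtype had 6 arrays, lettered A to F, and each of 4 mutant genotypes had 3, lettered A to C. HP1a mutants were HP1a04/HP1a05. A further genotype, HP1a04 PofD119/HP1a05 PofD119, is labelled a double mutant, and its arrays are called HP1a Pof-labelled below. They carried the same HP1a alleles plus a Pof allele on each chromosome. Setdb1 mutants were homozygous for Setdb110.1. Su(var)3-9 mutants carried Su(var)3-9evo over the allele 06 of the same gene. HP1a is a structural protein of heterochromatin, Pof coats chromosome 4, and Setdb1 and Su(var)3-9 are histone H3 lysine 9 methyltransferases. The labels do not say how much of each protein was left, and give no sex or strain background for the wildtype. A difference in strain background cannot be told apart from the mutations in the comparisons below.

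The 18 arrays had medians between 5.93 and 6.03. The gene that encodes HP1a had a mean log2 signal of 10.20 ± 0.05 (SD, n = 6) in wildtype, 9.48 ± 0.07 (SD, n = 3) in HP1a mutants and 9.53 ± 0.08 in the HP1a Pof-labelled arrays. It fell in both groups with HP1a alleles (limma adjusted p = 3e-07 and 4.61e-07). Pof averaged 7.49 ± 0.09 in wildtype and 8.32 ± 0.29 in the HP1a Pof-labelled arrays, which is higher, not lower (limma adjusted p = 0.00104). The position of its probes relative to the PofD119 lesion is unknown here, so this level does not check that label. Setdb1 and Su(var)3-9 were not analysed here. Signal from the 3′ end of 18S ribosomal RNA was 12.30 ± 0.09 in wildtype and between 9.39 and 10.10 on average in the mutant groups, a difference between wildtype and every mutant group that runs alongside all comparisons with wildtype below. The difference between 3′ and 5′ probe sets of 3 control transcripts averaged 1.67 in wildtype and 1.25 to 1.64 in the mutant groups. The part of these differences in the P450 results was not tested.

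P450 enzymes are haem proteins that insert an oxygen atom into fatty acids, hormones and foreign chemicals. Most insect P450s sit in the endoplasmic reticulum and take electrons from cytochrome P450 reductase or cytochrome b5, while those of the mitochondrial clan take them from adrenodoxin-like ferredoxins. In larvae many are expressed in the midgut, Malpighian tubules and fat body, and genes of families 4, 6, 9, 12 and 28 include several that respond to plant compounds or insecticides. The insect genes are grouped into the CYP2, CYP3, CYP4 and mitochondrial clans, and many lie in tandem runs of related genes.

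By clan, the members comprised 31 genes of the CYP3 clan, 19 of the CYP4 clan, 8 of the mitochondrial clan and 2 of the CYP2 clan. By number family, 18 of 22 genes on the array in family 4 were members, as were 20 of 23 in family 6 and 5 of 5 in family 9. All 6 genes of family 12 and 3 of 4 of family 28 were members. Only 8 of 20 genes in the other families passed. Chromosome arm 2R held 30 of the 60 members, against 20.5% of all tested genes. None lay on chromosome 4, where 55 other genes were tested. Within groups the 60 members' profiles correlated between arrays at 0.990 to 0.997 in wildtype and at 0.960 to 0.991 in the mutant groups, across genes, which are not independent.

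In every mutant genotype more P450 genes were lower than higher than in wildtype. In HP1a mutants 41 of 60 were lower and 12 higher. Among all tested genes 35.6% were lower and 23.5% higher in that comparison. In the HP1a Pof-labelled arrays 45 were lower and 9 higher, against 35.8% and 25% of all genes. In Setdb1 mutants 37 were lower and 9 higher, against 35.2% and 17.3%. In Su(var)3-9 mutants 33 were lower and 13 higher, against 47.6% and 16.3%. Against wildtype arrays A to C only, the higher counts were 5 in Setdb1 and 8 in Su(var)3-9 mutants. The members' share lower was therefore 68.3%, 75.0%, 61.7% and 55% in turn, the last only slightly above the share of all genes. All of these calls are from limma at an adjusted p under 0.05 over 8211 genes, and the comparisons share the 6 wildtype arrays. RNA came from whole larvae, so fewer cells of a type and less RNA per cell cannot be told apart.

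Falls of at least 2-fold were also more frequent among the members than among all tested genes. Members at least 2-fold lower numbered 22 in HP1a mutants, 24 in the HP1a Pof-labelled arrays, 15 in the Setdb1 group and 13 in Su(var)3-9 mutants. Among all tested genes such falls made up 6.48%, 7.78%, 4.43% and 7.17%. Members at least 2-fold higher numbered 5, 6, 3 and 6, against 5.68%, 6.11%, 5.03% and 5.54% of all genes. The median change of the 60 members was -0.69, -0.87, -0.53 and -0.37 on the log2 scale, and that of all tested genes -0.06, -0.05, -0.11 and -0.22. With each array centred on its median, Su(var)3-9 mutants had 20 members lower and 16 higher in place of 33 and 13, so the split between directions in that genotype depends on the scaling. The shares of all tested genes were not counted with arrays centred. Across the 5 groups 58 of 60 members differed by limma's F test, or 96.7%, against 83.3% of all tested genes. Cyp301a1 and Cyp6d2 did not pass.

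**Figure D1:**
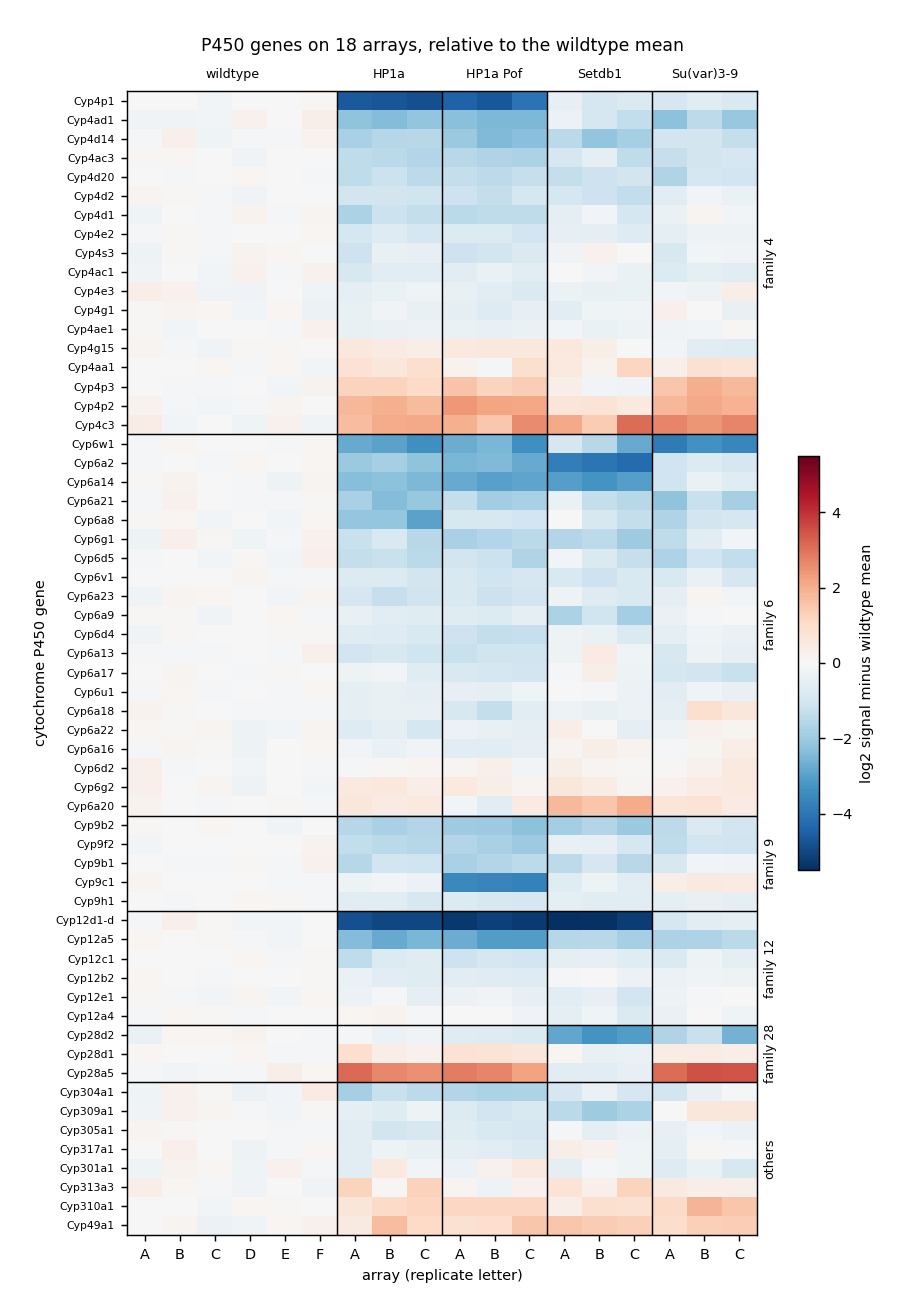
Log2 signal of the 60 P450 genes (rows, by family) in the 18 arrays (columns, by group), each minus the gene's wildtype mean. Most rows are lower in the mutant columns, with changes down to -5.39 for Cyp12d1-d in Setdb1 mutants and up to 3.35 for Cyp28a5 in Su(var)3-9 mutants.

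For the counts by family below, 35.6%, 35.8%, 35.2% and 47.6% of all tested genes were lower in turn. The shares of all tested genes that were higher were 23.5%, 25%, 17.3% and 16.3%. Family 9 had all 5 members lower in HP1a mutants, in the HP1a Pof-labelled arrays and in Setdb1 mutants, with median changes of -1.22, -1.80 and -0.62. In Su(var)3-9 mutants 4 of its members were lower and 1 was higher. Family 12 had 5 of 6 lower and none higher in those first 3 genotypes, and 4 lower in Su(var)3-9 mutants, where the median change was -0.42. Family 6 had 15 of 20 lower in HP1a mutants, 17 in the HP1a Pof-labelled arrays, 11 in the Setdb1 group and 12 in Su(var)3-9 mutants. Between 1 and 3 of its members were higher. Family 4 had 12, 13, 11 and 9 of 18 lower and 5, 4, 4 and 4 higher, and its last count of lower genes was near the 47.6% of all tested genes. Of the 3 members in family 28, 2 were higher in HP1a mutants, in the HP1a Pof-labelled arrays and in Su(var)3-9 mutants, while in Setdb1 mutants 2 were lower and none was higher. The 8 members of the remaining families had 3 or 4 lower and 2 or 3 higher in each. Their 3 lower genes were near the background in Setdb1 mutants (35.2%) and below it in Su(var)3-9 mutants (47.6%). In both of these genotypes 3 were higher, above the background. No test of a difference between families was made.

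**Figure D2:**
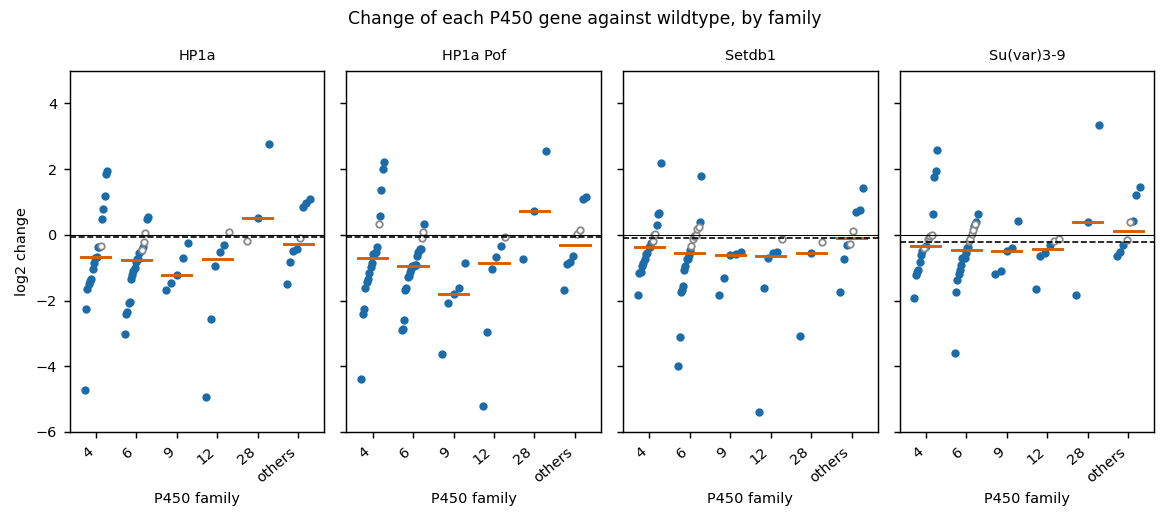
Log2 change of each P450 gene against wildtype by family, 1 panel for each mutant genotype (filled points are called by limma, open points are not, orange bars are family medians, and the dashed line is the median of all tested genes). The median of family 9 lies at -1.80 in the HP1a Pof-labelled arrays, and that of family 28 at 0.52 in HP1a mutants.

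The deepest fall was that of Cyp12d1-d, a mitochondrial P450 gene known to be induced by xenobiotics. In wildtype its log2 signal ran from 9.43 to 9.88 with a median of 9.58. It read 4.77, 4.57 and 4.59 in HP1a mutants, 4.30, 4.48 and 4.35 in the HP1a Pof-labelled arrays and 4.10, 4.14 and 4.37 in Setdb1 mutants. In Su(var)3-9 mutants it read 8.69, 9.01 and 9.12. Every mutant array was below every wildtype array, but the Su(var)3-9 arrays stood near wildtype and the others near the bottom of the signal range. The change was -4.95 ± 0.11 (log2, SE; limma adjusted p = 2.19e-14) in HP1a mutants and -5.39 ± 0.11 (adjusted p = 4.24e-15) in Setdb1 mutants, a 42.1-fold fall. It was -0.66 ± 0.11 (adjusted p = 8.3e-05) in Su(var)3-9 mutants, or -0.43 with arrays centred on their medians. The difference between Su(var)3-9 and Setdb1 mutants was 4.74 ± 0.13 (adjusted p = 4.32e-13). Cyp12d1-d has a near-identical neighbour, Cyp12d1-p, and a probe set assigned to both was not used, so the signal of the 2 genes may not be separate.

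Others of family 12 changed less. Cyp12a5 ran from 9.00 to 9.26 in wildtype with a median of 9.18. It read 6.75, 6.38 and 6.63 in HP1a mutants, 6.41, 6.10 and 6.07 in the HP1a Pof-labelled arrays, 7.59, 7.64 and 7.34 in Setdb1 mutants and 7.43, 7.45 and 7.66 in Su(var)3-9 mutants. All mutant arrays lay below wildtype. The changes were -2.57, -2.96, -1.63 and -1.64, each with an SE of 0.10. Next to it on 3R, Cyp12a4, whose overexpression is known to give lufenuron resistance, was lower in Setdb1 mutants (-0.51 ± 0.11, adjusted p = 0.00111). Its changes in the other genotypes were 0.09, -0.05 and -0.20 and were not called, the last becoming -0.30 (adjusted p = 0.044) without Su(var)3-9 array B. Cyp12c1 changed by -0.94, -1.04, -0.56 and -0.54, and Cyp12b2 and Cyp12e1 by between -0.71 and -0.13. The changes of -0.13, for Cyp12b2 in Setdb1 mutants and Cyp12e1 in Su(var)3-9 mutants, were not called. Cyp49a1, also of the mitochondrial clan, rose in all 4, by 1.10, 1.10, 1.41 and 1.21.

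Family 4, whose enzymes include fatty acid omega-hydroxylases, held both the second deepest fall and several rises. Cyp4p1 ran from 11.10 to 11.35 in wildtype with a median of 11.27. It read 6.61, 6.52 and 6.39 in HP1a mutants, 6.81, 6.60 and 7.20 in the HP1a Pof-labelled arrays, 10.81, 10.30 and 10.43 in Setdb1 mutants and 10.33, 10.57 and 10.40 in Su(var)3-9 mutants. The groups with HP1a alleles were well apart from the other mutants. Cyp4p1 fell by 4.74 ± 0.12 (adjusted p = 5.83e-14), or 26.6-fold, in HP1a mutants and by 4.38 ± 0.12 in the HP1a Pof-labelled arrays. It changed by -0.73 ± 0.12 in Setdb1 and by -0.81 ± 0.12 in Su(var)3-9 mutants. Compared directly, it was higher by 4.01 ± 0.14 in Setdb1 than in HP1a mutants (adjusted p = 7.85e-12) and by 3.92 ± 0.14 in Su(var)3-9 than in HP1a mutants (adjusted p = 2.19e-11).

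Its neighbours on 2R went the other way. Cyp4p2 ran from 4.63 to 4.97 in wildtype, below the level of 6 used for the filter. It read 6.61, 6.73 and 6.51 in HP1a mutants, 7.15, 6.94 and 6.92 in the HP1a Pof-labelled arrays, 5.44, 5.54 and 5.32 in Setdb1 mutants and 6.59, 6.85 and 6.68 in Su(var)3-9 mutants. No mutant array overlapped wildtype. The rises were 1.84 ± 0.10, 2.22 ± 0.10, 0.66 ± 0.10 and 1.93 ± 0.10. Cyp4p3, on the other side of Cyp4p1, rose by 1.17, 1.37 and 1.77 in all but Setdb1 mutants, where its change was -0.00 ± 0.12.

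Cyp4c3 was the family 4 gene with the largest rise in Setdb1 and Su(var)3-9 mutants. Its signal ran from 6.50 to 7.13 in wildtype with a median of 6.65. It read 8.43, 8.76 and 8.83 in HP1a mutants, 8.71, 8.21 and 9.33 in the HP1a Pof-labelled arrays, 8.82, 8.13 and 9.83 in Setdb1 mutants and 9.44, 9.16 and 9.41 in Su(var)3-9 mutants. Every mutant array exceeded every wildtype array, although the Setdb1 arrays spread over more than 1 unit. The rises were 1.93, 2.01, 2.18 and 2.59, each with an SE of 0.29. Cyp4aa1 rose by 0.78 ± 0.21 in HP1a mutants. It changed by 0.34 in the HP1a Pof-labelled arrays, or by 0.55 (adjusted p = 0.0483) without array B, and by 0.64 in Setdb1 and 0.62 in Su(var)3-9 mutants, both called. Without Setdb1 array C the first became 0.36 (adjusted p = 0.157). The second changed little in size but was not called without Su(var)3-9 array B (0.52, adjusted p = 0.0788) or C (0.56, adjusted p = 0.0661). Against wildtype arrays A to C only, neither was called (0.60, adjusted p = 0.0828, and 0.58, adjusted p = 0.0776).

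Among the family 4 genes that fell, Cyp4ad1 changed by -2.26, -2.42, -0.86 and -1.92 and Cyp4d14 by -1.64, -2.24, -1.82 and -1.12, all called. Cyp4e2 changed by -0.87, -0.85, -0.57 and -0.34. The last was -0.12 (adjusted p = 0.336) with arrays centred on their medians. Cyp4d1 fell by 1.41 ± 0.16 in HP1a mutants and by 1.43 ± 0.16 in the HP1a Pof-labelled arrays. In Setdb1 mutants it was lower by less, -0.54 ± 0.16, and this call was lost without array C (-0.34, adjusted p = 0.101) or against wildtype arrays A to C only (-0.44, adjusted p = 0.0876). Its change in Su(var)3-9 mutants was -0.11. Cyp4ac3 and Cyp4d20 were lower in each genotype, with changes of -1.63 to -0.94.

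Cyp4g1, the oenocyte enzyme that makes cuticular hydrocarbons, changed little. It ran from 10.36 to 10.83 in wildtype with a median of 10.76, and read 10.28, 10.48 and 10.28 in HP1a mutants. The HP1a Pof-labelled arrays read 10.17, 9.97 and 10.20, all below wildtype, and the change was -0.56 ± 0.14 (adjusted p = 0.00302). The change in HP1a mutants was -0.33 ± 0.14 (adjusted p = 0.0579). It was -0.44 (adjusted p = 0.0444) when blocked by replicate letter and -0.39 (adjusted p = 0.0249) without wildtype array F. It was also called against wildtype arrays A to C only (-0.44, adjusted p = 0.0361) and with array weights (-0.41, adjusted p = 0.00665). In Setdb1 mutants it was -0.36 ± 0.14 (adjusted p = 0.0454), which was not called without Setdb1 array A (-0.22, adjusted p = 0.265) without wildtype array A, B, C or E, without the filter (-0.36, adjusted p = 0.0516) or with arrays centred (-0.25, adjusted p = 0.0997). In Su(var)3-9 mutants it was -0.02. Cyp4g15, the brain and glial relative of Cyp4g1, rose by 0.47 in HP1a mutants and by 0.57 in the HP1a Pof-labelled arrays. Its value in Setdb1 mutants was 0.31 (adjusted p = 0.0489), and this call was lost without Setdb1 array A (0.16, adjusted p = 0.314) or B (0.31, adjusted p = 0.102), without any 1 of wildtype arrays B to F, against wildtype arrays A to C only, without the filter and with robust variances. It changed by -0.48 ± 0.13 in Su(var)3-9 mutants, and by -0.26 (adjusted p = 0.0745) with arrays centred.

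**Figure D3:**
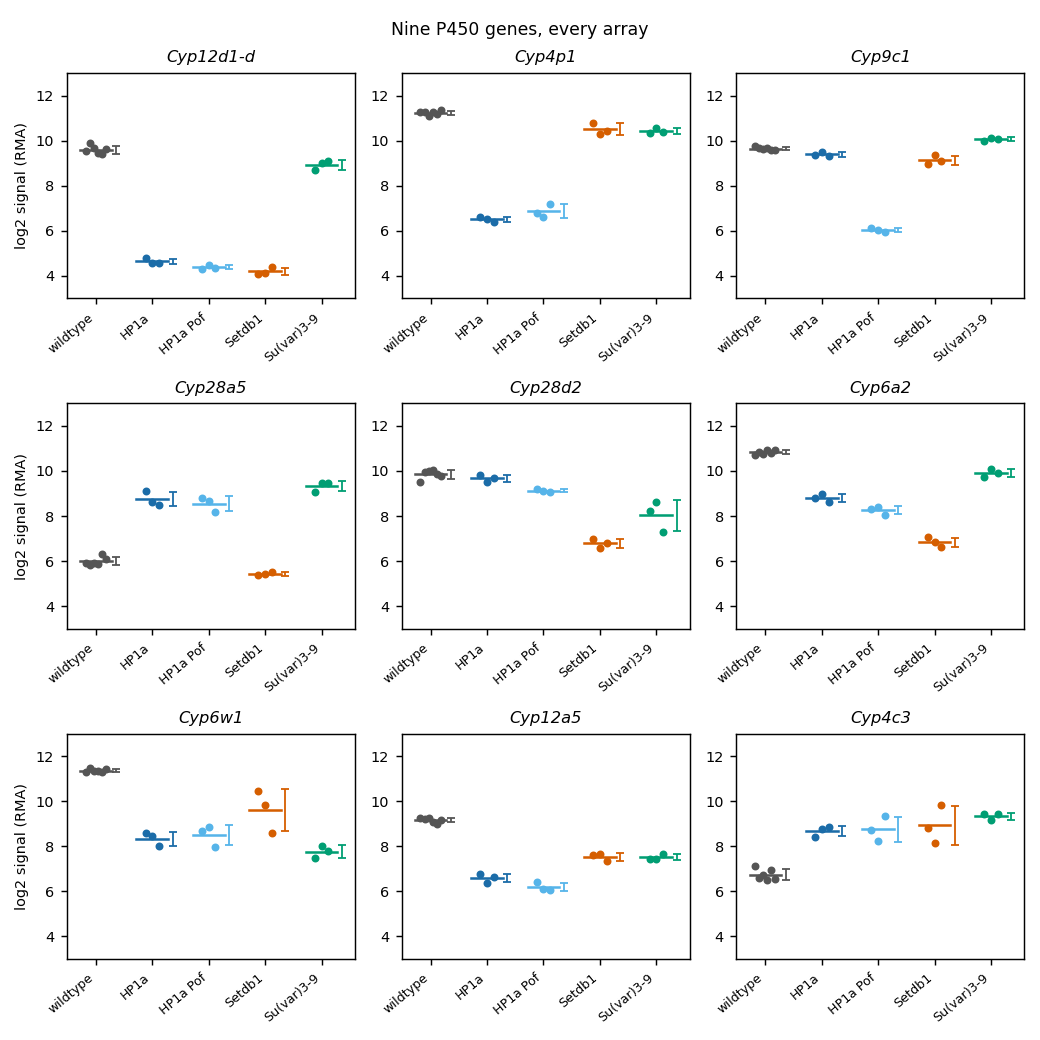
Log2 signal of 9 P450 genes in every array by group (points are arrays, bars are group means and error bars are SD). Cyp12d1-d stands at 4.10 to 4.77 in HP1a, HP1a Pof and Setdb1 arrays and at 8.69 or more in Su(var)3-9 and wildtype arrays, and Cyp9c1 stands at 5.96 to 6.10 in HP1a Pof arrays.

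Family 6 includes the genes most often linked to insecticide resistance in flies. Cyp6a2 ran from 10.73 to 10.95 in wildtype with a median of 10.82. It read 8.81, 8.99 and 8.61 in HP1a mutants, 8.31, 8.39 and 8.05 in the HP1a Pof-labelled arrays, 7.05, 6.83 and 6.62 in Setdb1 mutants and 9.72, 10.10 and 9.90 in Su(var)3-9 mutants. The 4 genotypes formed separate bands with Setdb1 mutants lowest. The changes were -2.03, -2.59, -4.0 and -0.93, each with an SE of 0.11, and that in Setdb1 mutants was 16.0-fold (adjusted p = 1.22e-13). The change from HP1a to Setdb1 mutants was -1.97 ± 0.13 (adjusted p = 2.14e-08). Su(var)3-9 mutants were higher than Setdb1 mutants by 3.08 ± 0.13 (adjusted p = 6.44e-11). Cyp6a14 had the same order, with changes of -2.35, -2.89, -3.11 and -0.71, the last -0.41 with array weights. Cyp6d4 changed by -0.74, -1.24, -0.48 and -0.37. Its Setdb1 value was -0.31 without array C, and its Su(var)3-9 value was -0.15 (adjusted p = 0.239) with arrays centred.

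Cyp6w1 was lowest in Su(var)3-9 mutants. It ran from 11.30 to 11.47 in wildtype with a median of 11.33. It read 8.58, 8.43 and 7.99 in HP1a mutants, 8.65, 8.84 and 7.98 in the HP1a Pof-labelled arrays, 10.43, 9.83 and 8.58 in Setdb1 mutants and 7.47, 8.02 and 7.79 in Su(var)3-9 mutants. All mutant arrays lay below wildtype, and the Setdb1 arrays were spread over nearly 2 units. The changes were -3.03, -2.87, -1.75 and -3.60, each with an SE of 0.29. The difference between Setdb1 and HP1a mutants, 1.28 ± 0.33 (adjusted p = 0.0146), was not called without HP1a array C (1.11, adjusted p = 0.0545), Setdb1 array A (0.87, adjusted p = 0.0582) or Setdb1 array B (1.17, adjusted p = 0.0637).

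Cyp6g1, whose overexpression is known to give DDT resistance, ran from 8.31 to 8.85 in wildtype with a median of 8.55. It read 7.33, 7.72 and 7.03 in HP1a mutants, 6.77, 6.97 and 7.08 in the HP1a Pof-labelled arrays and 6.97, 7.11 and 6.63 in Setdb1 mutants. These 9 arrays did not overlap wildtype, while Su(var)3-9 arrays at 7.16, 8.01 and 8.43 did. The changes were -1.21, -1.63, -1.67 and -0.70, each with an SE of 0.22. The last was not called without Su(var)3-9 array A (-0.35, adjusted p = 0.121) or with arrays centred (-0.48, adjusted p = 0.0975). Its neighbour Cyp6g2 was higher by 0.49, 0.34, 0.40 and 0.39. When blocked by replicate letter the 4 values became 0.34, 0.19, 0.24 and 0.24 and none was called (adjusted p = 0.0504, 0.255, 0.153 and 0.144). Against wildtype arrays A to C only, none of the 4 was called (0.34, 0.19, 0.24 and 0.24, adjusted p = 0.0595, 0.281, 0.177 and 0.162). The second of the 4 was also lost without HP1a Pof array A (0.24, adjusted p = 0.178) or B (0.35, adjusted p = 0.0691), or without wildtype array D, E or F. The third was lost without Setdb1 array A (0.29, adjusted p = 0.113) and the last without Su(var)3-9 array C (0.31, adjusted p = 0.0894), while with arrays centred the last was 0.61.

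Other family 6 genes with wide changes were Cyp6a21 (-2.08, -1.67, -1.07 and -1.75), Cyp6d5 (-1.33, -1.28, -0.74 and -1.39) and Cyp6a8 (-2.39, -0.93, -0.73 and -1.19). Without Setdb1 array C the Setdb1 change of Cyp6d5 was -0.47 (adjusted p = 0.0584) and that of Cyp6a8 -0.45 (adjusted p = 0.16). The Setdb1 change of Cyp6a8 was also not called without array B (-0.64, adjusted p = 0.0732) or when blocked by replicate letter (-0.74, adjusted p = 0.0572) or against wildtype arrays A to C only (-0.74, adjusted p = 0.07), and without array A it was -1.09. Cyp6a17, a gene of temperature preference behaviour, changed by -0.96 in the HP1a Pof-labelled arrays and by -1.07 in Su(var)3-9 mutants. Its change in HP1a mutants, -0.36, was not called without array C (-0.22, adjusted p = 0.151) or against wildtype arrays A to C only (-0.38, adjusted p = 0.0536), and that in Setdb1 mutants was -0.00. Cyp6a20, known from studies of male aggression, rose by 1.79 ± 0.16 in Setdb1 mutants (adjusted p = 3.06e-07). It rose by 0.55 in HP1a and 0.63 in Su(var)3-9 mutants and changed by -0.09 in the HP1a Pof-labelled arrays, where it became -0.36 (adjusted p = 0.0346) without array C.

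In family 9, Cyp9c1 was lowest in the HP1a Pof-labelled arrays. It ran from 9.58 to 9.78 in wildtype with a median of 9.64. It read 9.36, 9.51 and 9.32 in HP1a mutants, 6.10, 6.04 and 5.96 in the HP1a Pof-labelled arrays, 8.97, 9.36 and 9.08 in Setdb1 mutants and 9.99, 10.14 and 10.09 in Su(var)3-9 mutants. The fall against wildtype in the HP1a Pof-labelled arrays was 12.3-fold (-3.62 ± 0.08, adjusted p = 1.18e-14). The change in HP1a mutants was -0.25 ± 0.08 (adjusted p = 0.0127), and it was -0.22 (adjusted p = 0.0656) without HP1a array C. In Setdb1 mutants it was -0.51 and in Su(var)3-9 mutants it was 0.42, both called. With arrays centred the HP1a value was -0.18 (adjusted p = 0.067) and the Su(var)3-9 value 0.64. Cyp9b2 changed by -1.67, -2.08, -1.84 and -1.10, Cyp9f2 by -1.48, -1.80, -0.62 and -1.18, Cyp9b1 by -1.22, -1.62, -1.31 and -0.41 and Cyp9h1 by -0.71, -0.85, -0.57 and -0.48, all called.

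All 3 members of family 28 were lower in Setdb1 than in HP1a mutants and lower in Setdb1 than in Su(var)3-9 mutants. Cyp28a5 ran from 5.81 to 6.30 in wildtype with a median of 5.91. It read 9.12, 8.64 and 8.50 in HP1a mutants, 8.78, 8.68 and 8.18 in the HP1a Pof-labelled arrays, 5.36, 5.41 and 5.52 in Setdb1 mutants and 9.08, 9.48 and 9.44 in Su(var)3-9 mutants. The Setdb1 arrays were below all wildtype arrays and the other mutants were above them. Wildtype lay around the level of 6 used for the filter, and the Setdb1 arrays lay below it. Cyp28a5 passed the filter only with the mutant arrays. The rises were 2.76 ± 0.15, 2.56 ± 0.15 and 3.35 ± 0.15, the last of them 10.2-fold (adjusted p = 1.27e-10). In Setdb1 mutants the change was -0.56 ± 0.15 (adjusted p = 0.00638), and blocked by replicate letter -0.45 (adjusted p = 0.0595), or against wildtype arrays A to C only -0.45 (adjusted p = 0.0554). Su(var)3-9 exceeded Setdb1 mutants by 3.90 ± 0.18 (adjusted p = 1.67e-10), and the change from HP1a to Setdb1 mutants was -3.32 ± 0.18 (adjusted p = 1.39e-09).

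Cyp28d1 and Cyp28d2 are neighbours on 2L and have been mapped as candidates for nicotine resistance. Cyp28d2 ran from 9.49 to 10.06 in wildtype with a median of 9.92. It read 9.81, 9.53 and 9.68 in HP1a mutants, 9.18, 9.13 and 9.07 in the HP1a Pof-labelled arrays, 6.99, 6.58 and 6.81 in Setdb1 mutants and 8.21, 8.63 and 7.28 in Su(var)3-9 mutants. HP1a mutants overlapped wildtype and the others did not. The changes were -0.19, -0.73, -3.07 and -1.82, each with an SE of 0.21, and the first was not called. Cyp28d1 rose by 0.52 in HP1a mutants, or by 0.30 (adjusted p = 0.0384) without HP1a array A, and by 0.73 in the HP1a Pof-labelled arrays. In Setdb1 mutants it changed by -0.23, which was -0.40 (adjusted p = 0.0228) without array A. Its rise of 0.39 in Su(var)3-9 mutants was not called without array A (0.37, adjusted p = 0.0525) or against wildtype arrays A to C only (0.37, adjusted p = 0.0809), and was 0.61 with arrays centred.

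Of the other families, Cyp310a1 rose by 0.96, 1.14, 0.70 and 1.47. Cyp309a1 was lower in the first 3 genotypes (-0.48, -0.88 and -1.73) and changed by 0.42 in Su(var)3-9 mutants, or 0.64 with arrays centred. That last value was not called without Su(var)3-9 array B (0.32, adjusted p = 0.12) or C (0.32, adjusted p = 0.123) or against wildtype arrays A to C only (0.36, adjusted p = 0.115), and the HP1a value was not called without HP1a array B (-0.39, adjusted p = 0.0639). In the CYP2 clan, Cyp304a1 changed by -1.50, -1.69, -0.74 and -0.53 and Cyp305a1 by -0.82, -0.82, -0.31 and -0.30. For Cyp305a1 the Setdb1 call was lost without Setdb1 array B (-0.19, adjusted p = 0.193) or C (-0.30, adjusted p = 0.0841), or without wildtype array A or B, and the Su(var)3-9 call without array A (-0.24, adjusted p = 0.109) or C (-0.29, adjusted p = 0.0758). With arrays centred both were lost (-0.20, adjusted p = 0.153, and -0.08, adjusted p = 0.548), and with array weights the Su(var)3-9 value was -0.16 (adjusted p = 0.0762). Cyp301a1, a cuticle gene of the mitochondrial clan, changed by -0.65 in Su(var)3-9 mutants, and by -0.54 (adjusted p = 0.0913) without array C or -0.43 (adjusted p = 0.0986) with arrays centred, and it was not called against wildtype arrays A to C only (-0.67, adjusted p = 0.0518). Cyp303a1, a gene of sensory bristle development, and Cyp6t3, linked to ecdysteroid synthesis, were below the filter.

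Between the mutant genotypes the P450 genes differed more often than the tested genes as a whole. Setdb1 mutants had 20 members higher and 11 lower than HP1a mutants, where 10% and 8.44% of all tested genes were called. Su(var)3-9 mutants had 29 higher and 3 lower than HP1a mutants, against 11.9% and 28.2%. Su(var)3-9 had 18 higher and 9 lower than Setdb1 mutants, against 8.48% and 19%. With arrays centred that last split was 25 higher and 6 lower, with no count over all tested genes. The median change of the members was 0.14, 0.35 and 0.10 in these comparisons, and that of all tested genes -0.02, -0.14 and -0.12. The count of 20 rested in part on single arrays, and was 13 without HP1a array A and 12 without Setdb1 array B. That of 29 ran from 20 to 36 with 1 array left out, and was 38 with array weights. The first 2 comparisons share the HP1a arrays.

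Few P450 genes were called between the HP1a Pof-labelled arrays and HP1a mutants, with 3 arrays in each group. The median change of the members was -0.14, and that of all tested genes 0.01. The median size of a change in either direction was 0.20 for the members and 0.09 for all tested genes. Few calls therefore do not show that the groups were alike. Of the 60, 1 was lower and 1 higher in the HP1a Pof-labelled arrays than in HP1a mutants, against 0.487% and 0.244% of all tested genes. Cyp9c1 was 10.3-fold lower (-3.37 ± 0.09, adjusted p = 7.28e-13), with no overlap of the arrays. Cyp6a8, an inducible gene, read 9.08, 9.08 and 8.23 in HP1a mutants and 10.33, 10.32 and 10.15 in the HP1a Pof-labelled arrays, a difference of 1.47 ± 0.28 (adjusted p = 0.0153). That call was lost when blocked by replicate letter (adjusted p = 0.0521), which left 0 higher and 2 lower, the second being Cyp6a17 (-0.60, adjusted p = 0.0302). It was also lost without HP1a array C (1.19, adjusted p = 0.0988), HP1a Pof array A (1.44, adjusted p = 0.0726) or HP1a Pof array B (1.44, adjusted p = 0.0748). Without HP1a array C, Cyp6a17 was called (-0.74, adjusted p = 0.0177), and without HP1a Pof array C, Cyp6a20 was (-0.90, adjusted p = 0.00743). With arrays centred there were 2 lower and 1 higher.

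**Figure D4:**
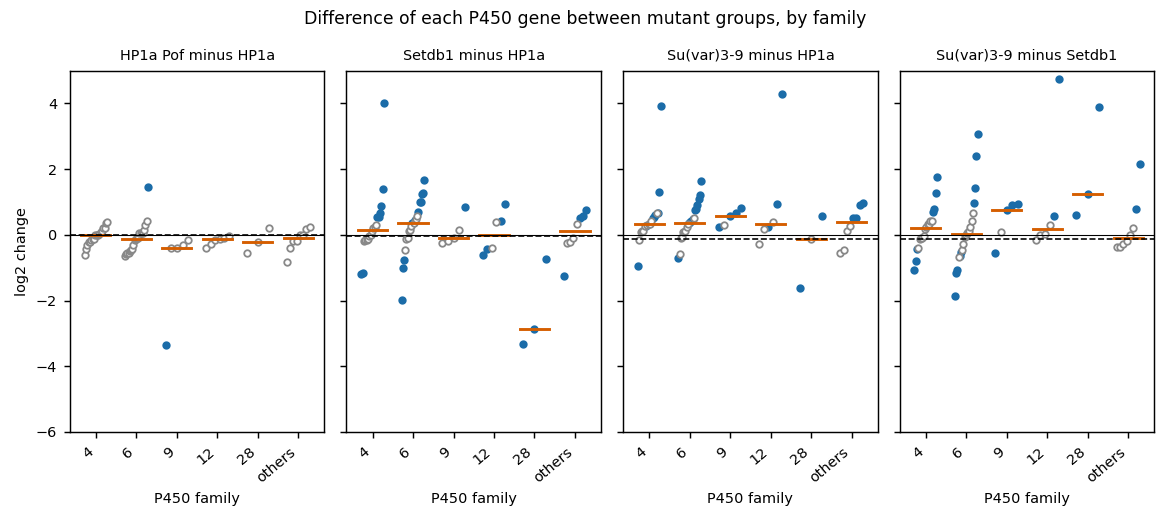
Log2 difference of each P450 gene between mutant genotypes by family, 1 panel for each comparison (filled points are called by limma, open points are not, orange bars are family medians, and the dashed line is the median of all tested genes). In HP1a Pof against HP1a arrays Cyp9c1 lies alone at -3.37, and in Su(var)3-9 against Setdb1 arrays Cyp12d1-d reaches 4.74.

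P450 genes lie in runs, so neighbours were set side by side. The reference annotation placed 43 P450 genes in 15 runs with no other protein-coding gene between them, and 31 of those genes were members. The longest run, on 2R, held 9 genes from Cyp6a22 to Cyp317a1. Among 16 adjacent pairs of members, 5 had opposite calls in HP1a mutants against wildtype, 4 in the HP1a Pof-labelled arrays, 4 in the Setdb1 group and 5 in Su(var)3-9 mutants. Over 5439 adjacent pairs of tested genes of any kind, 14.6%, 15.5%, 10.3% and 12.7% had opposite calls in turn. Between the mutant genotypes the counts were 0 for the double against the single HP1a genotype, 5 for Setdb1 against HP1a, and 2 each for Su(var)3-9 against HP1a and against Setdb1. The shares over all adjacent pairs were 0%, 1.51%, 5.31% and 2.35%. With 16 pairs, which share genes within a run, these counts are a description with no test. The Cyp4p run described above supplied 2 of the 5 pairs in HP1a mutants. Within the long run Cyp6a20 rose by 1.79 in Setdb1 mutants between Cyp6a9 at -1.56 and Cyp6a21 at -1.07. Cyp6a14 and Cyp6a13 on 2R were both lower in HP1a mutants (-2.35 and -1.02), and in Setdb1 mutants the first changed by -3.11 and the second by -0.02. Cyp9b1 and Cyp9b2 were lower together in all 4 genotypes. Related genes share sequence, and cross-hybridisation between neighbours was not tested.

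**Figure D5:**
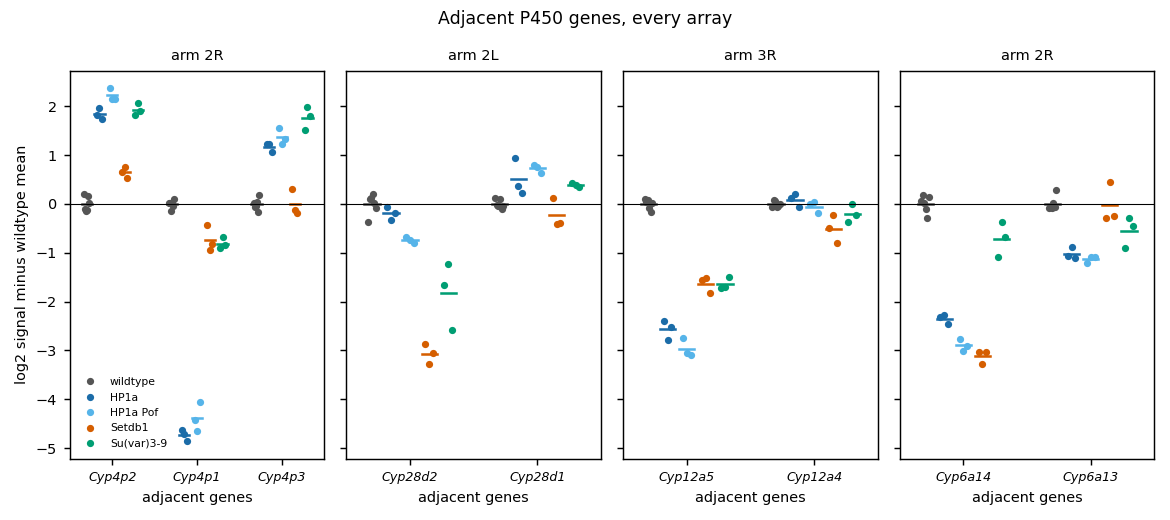
Log2 signal of adjacent P450 genes in 4 runs, each array (points) minus the gene's wildtype mean, by group, with bars for group means. In HP1a arrays the mean of Cyp4p1 lies at -4.74 between Cyp4p2 at 1.84 and Cyp4p3 at 1.17, and that of Cyp12a5 at -2.57 beside Cyp12a4 at 0.09.

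Genes that work with P450 enzymes were read from lists. Of 6 electron transfer genes named, 4 were tested, and Cpr and dare were not analysed here. All 4 were lower in HP1a mutants and in the HP1a Pof-labelled arrays, and 3 were lower in each of the other genotypes. Cyt-b5, which donates electrons to some P450s, changed by -0.84, -0.79, -0.62 and -0.88, and its 12 mutant arrays at 11.99 to 12.50 lay below the 6 wildtype arrays at 12.97 to 13.08. Glutathione transferases, which conjugate reactive products, had 22, 22, 19 and 22 of 31 lower and 3, 1, 3 and 3 higher, with medians of -0.55, -0.63, -0.49 and -0.60. UDP-glycosyltransferases had 21, 20, 15 and 20 of 29 lower and 2, 2, 5 and 4 higher, with medians of -0.82, -0.84, -0.42 and -0.86. The background for these counts is that given above for each comparison.

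Some of these genes changed by as much as the P450 genes. GstE5 and GstE1 had their deepest falls in the HP1a Pof-labelled arrays, -4.38 ± 0.13 and -3.25 ± 0.10, and changed by -1.92 and -0.82 in HP1a mutants. Ugt37A2 changed by -2.71, -3.36, -1.95 and -2.46, while Ugt37C1 rose by 0.70, 1.10, 1.44 and 2.28. Mdr50, an efflux transporter of the ABC class, changed by -2.12, -2.40, -1.30 and -2.38, and the other 3 transporters were called in 2 of 12 tests. Of 8 tested epoxide hydrolases and esterases 6, 5, 1 and 1 were lower and 1 was higher in each, alpha-Est9, by 1.61 to 1.82. Among 7 tested regulators of detoxification genes, 4, 3, 3 and 5 were lower and 1, 1, 1 and 0 higher. Hnf4, a nuclear receptor of lipid metabolism, changed by -0.49, -0.54, -0.35 and -0.59, and cnc, the Nrf2 relative, by -0.32, -0.26, -0.34 and -0.39. The ecdysteroid-making P450 genes dib, phtm, shd and spok had 1, 1, 1 and 2 higher and 0, 1, 0 and 0 lower. For comparison, 35.6%, 35.8%, 35.2% and 47.6% of all tested genes were lower in turn, and 23.5%, 25%, 17.3% and 16.3% were higher. The 1 lower of 8 epoxide hydrolases and esterases in each of the last 2 genotypes was below that share. The 3 of 7 regulators lower in the middle 2 genotypes were near it. Differences of these short lists from all tested genes were not tested.

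Markers of tissues that express P450 genes, and cuticle genes, were read in the same comparisons and did not all move in 1 direction. The background for these counts is the share of all tested genes given above for each comparison. Of 12 tested midgut genes 10, 10, 6 and 9 were lower and 2, 2, 2 and 1 higher. Their summed signal was 16.17 to 16.26 in wildtype arrays and 15.49 to 15.89 over the mutant arrays, on the log2 scale. Malpighian tubule genes, 6 tested, had 1, 3, 2 and 1 lower and 3, 3, 4 and 2 higher, and their summed signal was 10.55 to 10.77 in wildtype and 10.47 to 11.25 over the mutants. Fat body genes, 3 tested, had 2 lower and 1 higher in each, with sums of 14.08 to 14.18 in wildtype and 13.93 to 14.21 in mutants, and 3 others with a probe set did not pass the filter. Oenocyte genes, 3 tested, had 1, 2, 1 and 2 lower and 0, 0, 1 and 0 higher, with sums of 10.02 to 10.52 and 8.93 to 10.15. Cuticle and moult genes, 72 tested, had 50, 45, 53 and 55 higher and 6, 8, 6 and 6 lower, and their sums were 15.28 to 15.85 in wildtype and 16.43 to 17.54 in mutants. The part of tissue makeup and of developmental stage in the P450 results was not tested.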

How the data were processed

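The authors deposited log2 signals, and RMA is the tool that the submitters' processing notes name. RMA corrects background, normalises between arrays and summarises probes, with its version and a genome build not given in the sources used here. The values carry no detection calls, so a low log2 value may be background and a fold change that ends there may be understated. Of 18952 probe sets, 13647 named 1 gene in the platform annotation, and 13544 were matched in the reference gene table. Probe sets with a gene identifier but no match kept the annotation's own symbol, and all together gave 11982 genes. Each gene was read through its probe set of highest mean, and 8211 genes at log2 6 or more in at least 3 of 18 arrays were tested. The P450 gene with several probe sets was Cyp12e1.

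Changes were fitted with limma 3.58.1 in R 4.3.3 (5 groups in 1 linear model, eBayes, 13 residual degrees of freedom), two-sided, with Benjamini-Hochberg adjustment over 8211 genes and a call at an adjusted p under 0.05. Values after ± are standard errors for changes and SD for levels. Arrays are replicates as the labels give them, and p-values measure the spread between pools of larvae. No depth exists for arrays, and their number limits the precision. Chromosome arms and gene order come from Release 6 of the reference annotation.

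Replicate letters were checked for pairing from residuals. Same-letter correlations had a lowest value of 0.204 for HP1a, 0.133 for HP1a Pof and 0.198 for Setdb1 against wildtype, 0.423 for HP1a Pof against HP1a and 0.271 for Setdb1 against HP1a, all over 0.1. They had a lowest value of 0.0286, -0.0536 and -0.00898 in the comparisons of Su(var)3-9 with wildtype, HP1a and Setdb1. Because the labels state no pairing of letters, the letter entered as a block in an alternative only. In the comparisons without Su(var)3-9 the correlations are a reason to read the main fit beside the blocked one. Wildtype arrays D to F have no mutant counterpart and did not bear on the blocked comparisons with wildtype.

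On simulated data of 8211 genes the fit recovered 65.7% of log2 changes of 0.5, 95.5% of 1 and 100% of 2 for HP1a against wildtype, with 8 false calls. The simulation changed a small share of the genes and drew noise independently for each array. In these data many more genes were called and same-letter residuals were correlated, so the rates may not carry over. Members and gene lists were chosen with earlier results of these data known. Named genes follow a rule: the 10 members with the highest wildtype mean, the largest called changes per comparison without overlap of arrays, per family the highest mean and the widest range, and a list of known members. Cyp6a13, Cyp6a22, Cyp6d2, Cyp4ac3, Cyp4d20, Cyp304a1, Cyp317a1, Cyp9b1, Cyp9h1, Cyp12b2, Cyp12c1 and Cyp12e1 fall outside it and were named after their values were seen. Promoter motifs and protein features were not analysed here.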

Additional observations from a re-analysis of the deposited data

How the results depend on the processing

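No called change of the 37 P450 genes named by the rule reversed. Members named outside that rule were not checked gene by gene in this way. Shares of all tested genes were counted under the main fit only. With the filter at log2 8, 34 P450 genes were counted, so counts fell by construction: 6 higher and 24 lower in HP1a, 5 and 26 in HP1a Pof, 3 and 24 in Setdb1 and 7 and 21 in Su(var)3-9 mutants against wildtype, with 13 higher in Setdb1 and 15 in Su(var)3-9 than in HP1a mutants. With wildtype arrays A to C alone, which is fewer samples, Setdb1 mutants had 5 and Su(var)3-9 mutants 8 members higher. Centring arrays gave 20 lower in Su(var)3-9 mutants and 2 lower in HP1a Pof than in HP1a arrays; the cause was not tested. Array weights gave 4 lower in that last comparison, and the replicate block gave 0 higher and 2 lower. In the other comparisons the replicate block kept every count of calls within 1.5 times. In Su(var)3-9 against wildtype arrays, whose letters did not pair, Cyp6g2 (0.24, adjusted p = 0.144) and Cyp309a1 (0.36, adjusted p = 0.115) were not called under the block. The block used wildtype arrays A to C only. On the same arrays without a block neither was called either (limma adjusted p = 0.162 and 0.115). Leaving out 1 array at a time, HP1a Pof against HP1a arrays had 0 to 1 higher and 1 to 2 lower. Against HP1a arrays, Setdb1 arrays had 12 to 24 higher and Su(var)3-9 arrays 20 to 36. Against wildtype the lower counts ran from 37 to 41 (HP1a), 43 to 45 (HP1a Pof), 32 to 37 (Setdb1) and 27 to 35 (Su(var)3-9).

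For the 37 genes named by the rule, 198 results were called. Under alternative settings 1428 of 1469 values kept the call and direction and 41 lost the call, and with 1 array left out 1512 of 1584 did and 72 lost it. The planned search of promoter windows and protein features was not run, as no sequence table was used here. A signal near the lower end of the range limits the size of a fall, as for Cyp12d1-d. None of 37 sets of wildtype values for the named genes held an array far from the others by Dixon's criterion, which chance meets in about 5% of sets.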
